A study of Mus musculus with 23 samples.

Results

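The homeostatic identity of microglia was followed through 9 genes whose transcripts mark resting microglia in the mouse brain, namely Siglech, Sparc, Tmem119, Sall1, Cx3cr1, Gpr34, Fcrls, Olfml3 and Slc2a5. They were taken from the count table by symbol, and 8 of the 9 symbols were found among 33280 genes. Fcrls had no row under that name. A row named Fcrl2, the symbol to which Fcrls has been changed to the best of current knowledge, is described apart, because neither annotation at hand (Gencode M21, RefSeq GRCm38) lists Fcrl2 and the match could not be checked. Counts of members below therefore run over 8 genes.

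Microglia are the macrophages of the brain parenchyma, and they live on signals from their surroundings, above all CSF-1 receptor ligands and TGF-beta. Under these signals they hold a set of genes that other macrophages lack or express weakly, and they lower this set when they become activated or lose contact with the tissue. Sall1 encodes a zinc finger transcription factor that maintains the identity of microglia. Cx3cr1 is the receptor for neuronal fractalkine, Gpr34 a receptor for lysophosphatidylserine, and Siglech a sialic acid-binding lectin of the cell surface. Tmem119 is a membrane protein used to tell microglia from other macrophages, Slc2a5 is the fructose transporter GLUT5, and Sparc and Olfml3 encode secreted matrix-associated proteins.

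Cells came from Ccr2creERT2/+ R26tdT/tdT mice, in which tamoxifen (2 mg per day) permanently labels Ccr2-expressing monocytes and their progeny with tdTomato (tdT). All mice of all groups carried this reporter, received tamoxifen, and underwent a thromboembolic stroke. BLZ945, which blocks the receptor for CSF-1 and thereby depletes brain macrophages, was given at 200 mg/kg by gavage for 7 days, and control mice (CTL) received the vehicle. According to the study's methods, mice of both sexes were young adults at the first gavage. Stroke was induced 8 weeks after the gavage and cells were sorted 1 day later, so every level below is that of stroke-exposed cells. Animals without stroke were not analysed here. Microglia (MG) were sorted as CD206-negative cells, with 5 libraries per treatment. Subdural CNS-associated macrophages (sdCAMs) were sorted as CD206-positive cells and split by the monocyte label. Those without it (tdT-) gave 5 libraries per treatment, and those with it (tdT+) gave 3 libraries, from BLZ945 mice. The sorted groups thus number 5. A CTL library held cells of 1 animal and a BLZ945 library those of 2 pooled animals, except the library named F2, which held 1. Apart from F2, pooling and treatment cannot be told apart.

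Total counts ranged from 9433960 to 13276081 over the 23 libraries. Levels are given as CPM, the count of a gene scaled to the library's total with TMM factors that correct for library composition, and 3 counts, the smallest level told from 0, equalled 0.230 to 0.331 CPM. Such floors and intervals on counts cover counting error only. The 9 sdCAM markers, among them Mrc1 (CD206), summed to between 13.2 and 56.5 CPM in the 10 MG libraries and to between 13301 and 19502 CPM in the 13 sdCAM libraries, so the sort separated both populations. Monocyte markers summed to 240.0 and 100.04 CPM in tdT- BLZ945 libraries F1 and M1 and to between 6.04 and 43.2 CPM in the other sdCAM libraries. Xist and Ddx3y matched the sex in the title of each library. The BLZ945 libraries F2 and M1 share an animal number in their names, but Xist had 0 counts in both the MG and the tdT- library of M1.

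As examples of the members' promoters, the annotated start regions of one that kept a larger share of its MG level in sdCAMs (Siglech) and of one that kept a smaller share (Slc2a5) are printed from RefSeq (GRCm38.p6), each covering 250 bases before and 50 bases after the annotated start. The capitals mark GAGGAA or its reverse complement, the core recognised by the macrophage factor PU.1.
Siglech, plus strand, chr7:55767934-55768233: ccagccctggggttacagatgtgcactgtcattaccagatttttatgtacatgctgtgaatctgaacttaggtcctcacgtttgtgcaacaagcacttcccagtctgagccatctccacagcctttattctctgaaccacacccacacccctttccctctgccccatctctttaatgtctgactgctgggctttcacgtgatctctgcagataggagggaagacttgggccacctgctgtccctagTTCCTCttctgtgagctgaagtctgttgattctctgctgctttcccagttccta
Slc2a5, plus strand, chr4:150119094-150119393: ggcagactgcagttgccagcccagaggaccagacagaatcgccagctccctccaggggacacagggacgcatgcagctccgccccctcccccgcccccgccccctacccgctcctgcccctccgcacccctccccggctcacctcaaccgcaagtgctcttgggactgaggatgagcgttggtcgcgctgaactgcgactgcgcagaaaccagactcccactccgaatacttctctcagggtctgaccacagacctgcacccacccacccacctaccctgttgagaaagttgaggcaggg
Of the 9 listed genes, 7 had such a region in the table, with 9 start windows in all. The letters were found in 2 of these 9 windows (22.2%), those of Siglech and Fcrls, against 9289 of 32851 windows of all genes (28.3%). The motif was thus no more frequent in these windows than in those of other genes.

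The first comparison asked whether repopulated microglia had regained full levels of the identity genes. No member differed between MG BLZ945 and MG CTL by edgeR's quasi-likelihood test (p-values adjusted by Benjamini-Hochberg over all genes), and the libraries of both groups overlapped for all 8. Among all 11264 genes tested, 46 (0.408%) were called, and 3.09% did not overlap between the groups. Leaving out 1 library moved the 46 to between 22 (without MG CTL F2 or M1) and 102 (without MG CTL M2), with no member called. At an unadjusted p under 0.05, 1 member (Olfml3) and 13.2% of all genes passed. The fitted levels of BLZ945 microglia lay between 88.3% and 117% of the CTL level, with a median log2 fold change of -0.04 over the members. The Fcrl2 row, described apart below, was at 75.3% of the CTL level, without overlap of the groups (adjusted p = 0.0863 by edgeR and 0.00603 by DESeq2).

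Among the transcription factors, Sall1 stood at 212, 226, 240.0, 277 and 154 CPM in MG CTL libraries F1, F2, F3, M1 and M2, and at 177, 257.3, 176, 264 and 179.7 CPM in the MG BLZ945 libraries of the same names. The range of each group lay largely within that of the other. Sall1 was at 94.0% of the CTL level (95% interval 74.5% to 118%; log2 fold change -0.09, SE 0.16; adjusted p = 0.863).

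Of the surface receptors, Cx3cr1 reached 2074, 2431, 2319.6, 2319 and 1755 CPM in MG CTL and 2688, 2475, 2163, 2410.4 and 2290.2 CPM in MG BLZ945, in the same order. The fractalkine receptor was at 109% of the CTL level (95% interval 93.7% to 127%; adjusted p = 0.651). The lysophosphatidylserine receptor Gpr34 was at 2943, 2786, 2728, 2732 and 1603 CPM in MG CTL and at 2727, 2780.3, 1850.5, 2219 and 1862 CPM in MG BLZ945. In CTL, 4 libraries were close together and M2 was far below them, whereas the BLZ945 libraries spread over the gap between. Gpr34 was at 88.3% (95% interval 70.0% to 112%; adjusted p = 0.677), the lowest of the members.

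The lectin Siglech was at 1754, 1896, 1752, 1847 and 1193 CPM in MG CTL and at 1528, 1912, 1296, 1690.3 and 1235 CPM in MG BLZ945. Here too M2 was the lowest CTL library, and its level was near that of the F3 and M2 libraries after BLZ945. Siglech was at 89.7% of CTL (95% interval 73.1% to 110.2%; adjusted p = 0.680). Tmem119 was at 3677, 3646, 2654, 3168 and 2072 CPM in MG CTL and at 3127, 3418, 2630.1, 3350.5 and 2973 CPM in MG BLZ945. This membrane protein gene was at 101% (95% interval 81.9% to 124%; adjusted p = 0.984), and the BLZ945 libraries were less spread than the CTL libraries (SD 317 against 685 CPM, not tested).

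The fructose transporter gene Slc2a5 was at 580.3, 612, 432, 568 and 313 CPM in MG CTL and at 494, 590.4, 344, 607 and 438 CPM in MG BLZ945. It had the widest interval of the members, at 97.6% of CTL with limits of 75.2% and 127% (adjusted p = 0.961). The secreted protein gene Sparc was at 4029.6, 3938, 3899.7, 3747 and 2659 CPM in MG CTL and at 3469.7, 4351, 3277, 3701 and 3102 CPM in MG BLZ945. Sparc was at 96.9% (95% interval 80.8% to 116%; adjusted p = 0.918). Olfml3, also secreted, was at 2656, 2835, 2451, 2908 and 2299.5 CPM in MG CTL and at 3032, 3677, 2885, 3151 and 2789.7 CPM in MG BLZ945. The BLZ945 values were mostly the higher, yet the lowest BLZ945 libraries fell within the CTL range. Olfml3 was at 117% (95% interval 101% to 136%; log2 fold change 0.22, SE 0.10; unadjusted p = 0.0436, adjusted p = 0.363).

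The intervals bound what these libraries could miss. The lower limits lay between 70.0% (Gpr34) and 101% (Olfml3) of the CTL level, and the upper limits between 110.2% (Siglech) and 136% (Olfml3). Larger losses than these lower limits were outside the intervals. For the Fcrl2 row, not counted among the members, the limits were 64.9% and 87.5%.

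**Figure D1:**
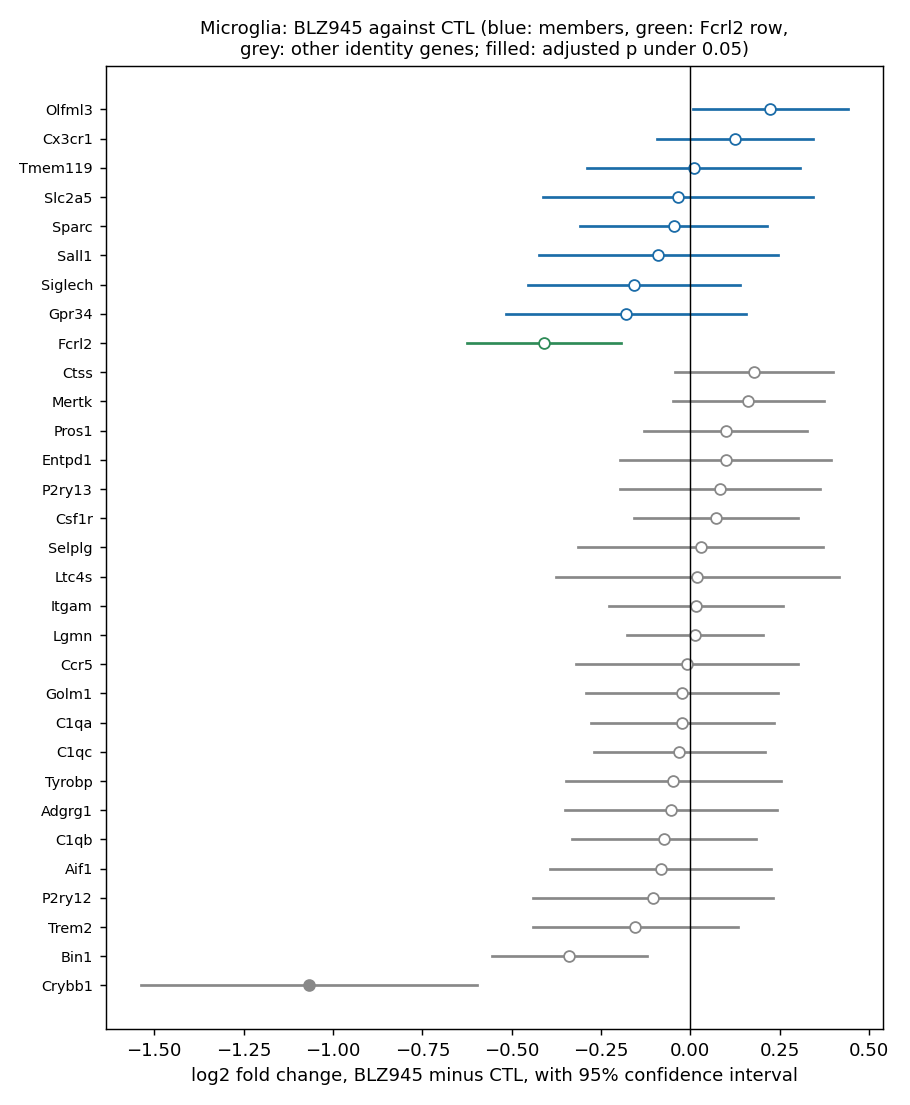
Log2 fold change of BLZ945 against CTL microglia (x axis) for each gene (y axis), as points with 95% confidence intervals from the edgeR fit of 10 libraries. Blue marks the members, green the Fcrl2 row and grey other identity genes (all but 1 of the list), and filled points have an adjusted p under 0.05. The intervals of 7 members include 0, that of Olfml3 begins at 0.01, and only Crybb1 among these genes is filled.

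A single library stood apart. In MG CTL library M2, all 8 members were at their lowest of the 10 MG libraries, with a median of -0.56 on the log2 scale against the CTL median. The same library held Spp1, the osteopontin gene that rises in activated microglia, at 17122 CPM, against 319 to 2115 CPM in the other CTL libraries. P2ry12, a further homeostatic receptor gene, was at 2928 CPM there and at 4452 to 5351 CPM in the others. After BLZ945, libraries F3 and M2 were next, with 7 of 8 members below the CTL median each and Spp1 at 6806 and 11689 CPM. In MG BLZ945 libraries F1, M1 and F2, 6, 3 and 0 members were below it, with Spp1 at 5371, 4110.5 and 743 CPM. The part of this in the comparison of the groups was not tested beyond leaving libraries out. Without MG CTL M2, Gpr34 had a log2 fold change of -0.31 (adjusted p = 0.270), Siglech of -0.26 (adjusted p = 0.341) and Tmem119 of -0.10 (adjusted p = 0.744), and no member was called. Without the M2 libraries of both groups, an alternative chosen after seeing the data, the values were -0.25 (adjusted p = 0.471) for Gpr34, -0.19 (adjusted p = 0.570) for Siglech and -0.09 (adjusted p = 0.840) for Tmem119.

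**Figure D2:**
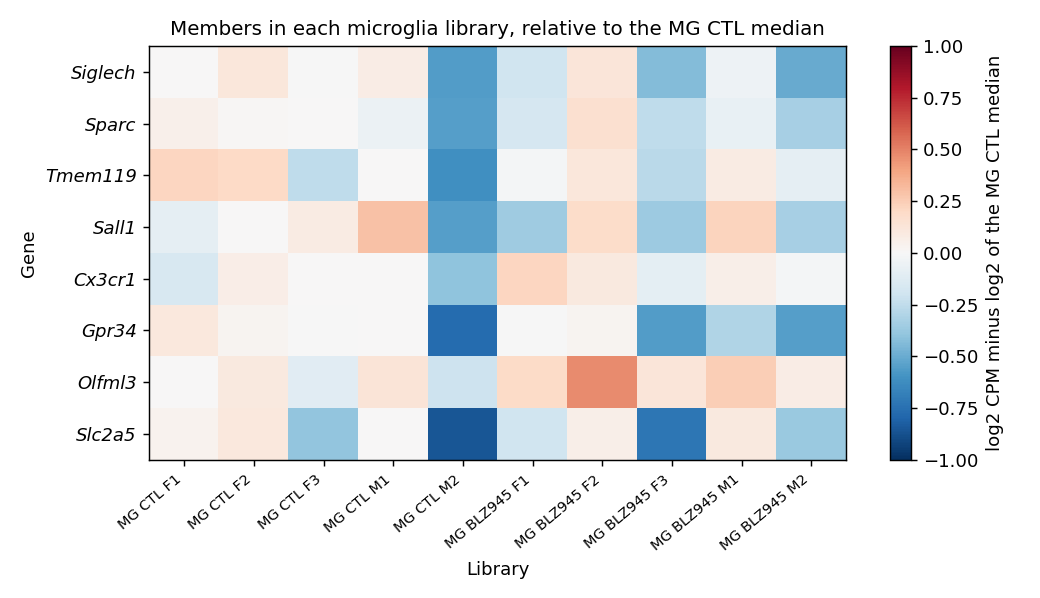
Level of each member (rows) in each microglia library (columns), as log2 CPM minus the log2 of the MG CTL median, on a colour scale from -1 to 1. The column of MG CTL M2 is blue for all 8 members, and those of MG BLZ945 F3 and M2 are blue for 7 of 8.

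Other genes of microglial identity were examined in the same fit. Of 23 such genes tested, 11 had a positive and 12 a negative log2 fold change in MG, with a median of -0.01, and 1 was called, against 0.408% of all genes, while 2 had an unadjusted p under 0.05, against 13.2%. The called gene was Crybb1, a crystallin gene expressed in microglia, at 342 ± 74.8 CPM in CTL and 165 ± 60.9 CPM in BLZ945 microglia (SD, n = 5 each), a log2 fold change of -1.07 (adjusted p = 0.0491). Its libraries overlapped between the groups, and its call was not examined under other processing. In tdT- BLZ945 against tdT- CTL sdCAMs, Crybb1 had a log2 fold change of -1.13 (edgeR adjusted p = 0.645). The other gene of the 2 under the unadjusted threshold was Bin1, a membrane-shaping protein gene, at 79.1% of the CTL level (log2 fold change -0.34, unadjusted p = 0.00436, adjusted p = 0.167). The highest value on that list was that of Ctss, the cathepsin S gene, at 0.18 (adjusted p = 0.498). Of 10 genes of the TGF-beta axis none was called, 9 had a positive log2 fold change (median 0.11), and 3 had an unadjusted p under 0.05, against 13.2% of all genes. These 3 were Smad7, an inhibitor of the pathway, at 0.37 (adjusted p = 0.133), Skil, a co-repressor of SMAD proteins, at 0.35 (adjusted p = 0.283), and Smad4, the shared signal transducer, at 0.31 (adjusted p = 0.219). In Smad7 and Smad4, 2 of the 10 genes, the BLZ945 and CTL libraries did not overlap, as in 3.09% of all genes. None of 9 macrophage lineage transcription factors was called, 6 had a positive log2 fold change, 5 had an unadjusted p under 0.05 and 2 did not overlap, and the range ran from -0.33 for Maf to 0.48 for Sall3, a relative of Sall1.

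In the list of 17 disease-associated activation genes, 14 had a positive and 3 a negative log2 fold change in MG, with a median of 0.35, against 0.000192 over all genes tested. At an unadjusted p under 0.05, 5 of the 17 passed, against 13.2% of all genes. These were Axl, Clec7a (log2 fold change 1.77, adjusted p = 0.106), Igf1 (1.31, adjusted p = 0.343), Fabp5 (1.24, adjusted p = 0.257) and Ch25h (1.14, adjusted p = 0.156), and only Axl was called after adjustment. Igf1 and Fabp5 were low, with means of 2.59 and 3.75 CPM in MG CTL and of 6.57 and 9.01 CPM in MG BLZ945. The most abundant genes of the list, Ctsd, Spp1, Cd9, Cd63, Lpl and Apoe, had log2 fold changes of 0.03, 0.39, 0.19, -0.06, -0.26 and 0.08. Axl, a receptor for apoptotic cells, was at 7.11, 9.75, 39.9, 13.32 and 9.11 CPM in MG CTL and at 94.3, 55.0, 72.2, 83.4 and 72.2 CPM in MG BLZ945. Every BLZ945 library lay above every CTL library (log2 fold change 2.24, adjusted p = 0.0100). MG CTL M2, lowest in the members and highest in Spp1, was among the low libraries for Axl.

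The second comparison asked how far the members were restricted to microglia. All 8 were lower in tdT- sdCAMs than in MG, in CTL as in BLZ945 mice, and no library of one population reached the other (edgeR quasi-likelihood test, highest adjusted p = 2.9e-06 in CTL and 5.25e-06 in BLZ945). Of 12697 genes tested, 10.3% were called lower in CTL and 14.1% in BLZ945 mice, and 11.9% and 11.6% were lower without overlap. Both comparisons were fitted in 1 model of 20 libraries. How much of the level in sdCAM libraries came from microglia among the sorted cells, and how much from sdCAMs, was not tested.

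The members fell into a lower and a higher set. Sparc, Tmem119, Sall1, Slc2a5 and Olfml3 were at 1.66% to 4.34% of the MG level in CTL sdCAMs and at 0.812% to 3.52% in BLZ945 sdCAMs. The 0.812% is that of Sall1 (log2 fold change -6.94) and rests on 1 library, F3, without which the log2 fold change was -8.35. The 3 receptor and lectin genes kept more, with Siglech at 11.3% and 26.7%, Cx3cr1 at 15.4% and 10.7%, and Gpr34 at 14.97% and 18.6% of the MG level in CTL and BLZ945 mice, respectively. Relative to the microglia of the same animal, Slc2a5 in tdT- CTL libraries lay between 1.01% and 2.16%, and Gpr34 between 11.1% and 18.1%. Sall1 was the most variable, from 0.105% in M2 to 6.98% in F1, that is from 2 to 176 counts.

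**Figure D3:**
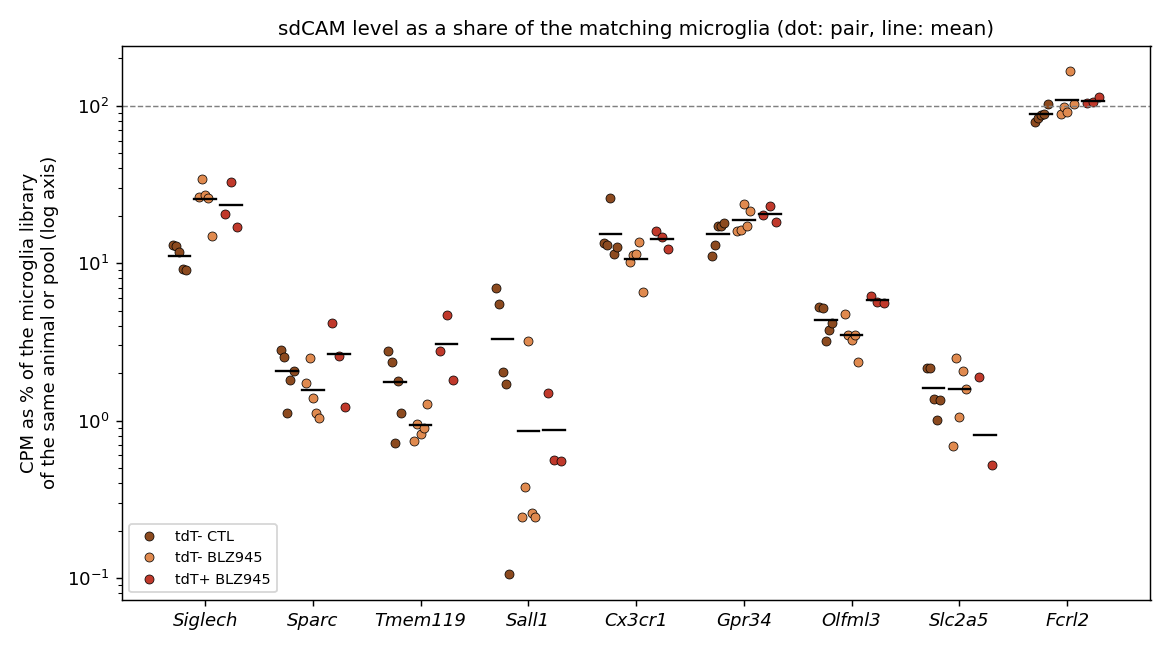
CPM in each sdCAM library as a percentage of the microglia library of the same animal or pool (y axis, log scale) for each gene (x axis), with a dot per pair and a line at the mean. The tdT+ library without Slc2a5 reads (F3) is not drawn. Siglech, Cx3cr1 and Gpr34 lie between 6.59% and 34.2%, and the Fcrl2 row lies around the dashed line at 100%.

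The other identity genes were more mixed. Of 23, 16 were called lower and none higher in CTL sdCAMs, against 10.3% of all genes called lower. In BLZ945 sdCAMs, 17 were called lower and 1 higher, against 14.1% of all genes called lower. The median log2 fold changes were -1.09 and -1.06. The adhesion receptor gene Adgrg1 had the largest fall, by 5.56 on the log2 scale in CTL and by 6.08 in BLZ945 mice, whereas the complement gene C1qa stood at 0.08 (adjusted p = 0.767) in CTL mice. In the TGF-beta axis, 5 of 10 genes were called lower and 1 higher in CTL, against 10.3% of all genes called lower. In BLZ945 mice, 8 were called lower and 1 higher, against 14.1% called lower. By sign alone, 7 were negative and 3 positive in CTL, and 9 negative and 1 positive in BLZ945 mice. Smad7 had the largest difference, of -4.44 in CTL and -3.95 in BLZ945 mice, and the receptor gene Tgfbr1 followed at -3.22 and -3.19. Sall3 fell with Sall1, by 5.23 and 5.93, and Maf, a factor of perivascular macrophages, rose by 1.84 and 2.39.

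The third comparison followed the members in sdCAMs after BLZ945. No member was called between tdT- BLZ945 and tdT- CTL, as was no gene of 13076 (0%), while 2 members and 697 genes in all (5.33%) had an unadjusted p under 0.05. DESeq2 called 56 genes, 1 member among them. That member was Siglech, at 229.99, 244, 205, 169.6 and 108 CPM in tdT- CTL libraries F1, F2, F3, M1 and M2 and at 404, 654, 351, 436 and 183 CPM in tdT- BLZ945. All but the M2 library of BLZ945 were above all CTL libraries. Relative to the microglia of the same animal or pool, Siglech was at 9.07% to 13.1% in tdT- CTL and at 14.9% to 34.2% in tdT- BLZ945, so that these shares did not overlap. This was so for 1 of 8 members and for 2.57% of 12697 genes in either direction. Libraries F1 and M1, with the most monocyte markers, were at 404 and 436 CPM, beside 351 and 654 CPM in F3 and F2. Library M2, with the lowest monocyte marker sum of tdT- BLZ945 (10.8 CPM), was at 183 CPM. A relation between Siglech and these markers was not tested. Siglech was at 213% of the CTL level (95% interval 138% to 329%; log2 fold change 1.09, SE 0.29; edgeR adjusted p = 0.518, and 0.0371 by DESeq2). Without BLZ945 F2 and M1, the log2 fold change was 0.71 (adjusted p = 0.778).

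Tmem119 was at 102, 85.3, 19.1, 56.8 and 23.3 CPM in tdT- CTL and at 23.4, 32.4, 21.5, 30.3 and 37.7 CPM in tdT- BLZ945. The CTL libraries F1, F2 and M1 were above all BLZ945 libraries, and F3 was below them and M2 among them. Tmem119 had a log2 fold change of -0.97 (95% interval -1.84 to -0.10; unadjusted p = 0.0313, edgeR adjusted p = 0.835). Sall1 was at 14.8, 12.6, 4.91, 4.74 and 0.162 CPM in tdT- CTL and at 0.429, 0.973, 5.60, 0.683 and 0.441 CPM in tdT- BLZ945, the last from 4 counts. Its log2 fold change was -2.18 with a 95% interval from -4.40 to 0.04 (adjusted p = 0.949), and without tdT- BLZ945 F3 it was -3.53 (adjusted p = 0.645). The other 5 members lay between 76.4% and 111% of the CTL level, with adjusted p-values from 0.998 to 1.00.

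Whether BLZ945 acted differently in sdCAMs and in MG was tested directly. No member passed, and 5 of 12697 genes (0.0394%) did. Leaving out 1 library moved the 5 to between 0 and 36, and DESeq2 gave 94. At an unadjusted p under 0.05, 3 members and 8.69% of all genes passed. The difference of the log2 fold changes, sdCAMs minus MG, was 1.24 for Siglech (95% interval 0.51 to 1.97; unadjusted p = 0.00196, edgeR adjusted p = 0.257), and DESeq2 put its adjusted p at 0.0490. For Sall1 it was -2.04 (unadjusted p = 0.0244, adjusted p = 0.470; -3.43 without tdT- BLZ945 F3) and for Tmem119 -0.99 (unadjusted p = 0.0418, adjusted p = 0.548).

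The fourth comparison set sdCAMs with the monocyte label against those without it in BLZ945 mice. No member was called, against 27 of 13076 genes (0.206%), and 2 members and 6.91% of all genes had an unadjusted p under 0.05. Leaving out 1 library gave between 16 and 27 calls over all genes. DESeq2 gave 133, the model of all 23 libraries 82 and the replicate block 6. Tmem119 was at 94.8, 123 and 54.1 CPM in tdT+ libraries F2, F3 and M2, above every tdT- BLZ945 library. The log2 fold change was 1.62 (SE 0.46; unadjusted p = 0.00285, edgeR adjusted p = 0.401), and it passed only in the model of all 23 libraries (adjusted p = 0.0381). Olfml3, at 227, 163 and 156 CPM in tdT+ and at 143, 129, 94.1, 111 and 65.3 CPM in tdT-, also did not overlap (log2 fold change 0.73, adjusted p = 0.533). Of all genes, 1.76% were higher in tdT+ without overlap. Slc2a5 was at 11.2, 0 and 2.30 CPM in tdT+, and the 0 counts of F3 allow up to 0.297 CPM.

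Against the MG of BLZ945 mice, tdT+ sdCAMs held lower levels of all 8 members, as 10.6% of 13790 genes did, and 16.9% of genes were lower without overlap. Levels ran from 0.910% of the MG level for Slc2a5 and 0.931% for Sall1 to 13.7% for Cx3cr1, 19.3% for Gpr34 and 22.2% for Siglech (edgeR, highest adjusted p = 1.83e-05). The lowest levels rest on few libraries. Without tdT+ F2, the log2 fold change moved from -6.78 to -8.74 for Slc2a5, from -6.75 to -7.71 for Sall1 and from -5.16 to -5.88 for Sparc, all still called. Siglech, Cx3cr1 and Gpr34 were again the members with the highest share. This comparison and that of tdT- BLZ945 with MG use the same MG libraries.

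**Figure D4:**
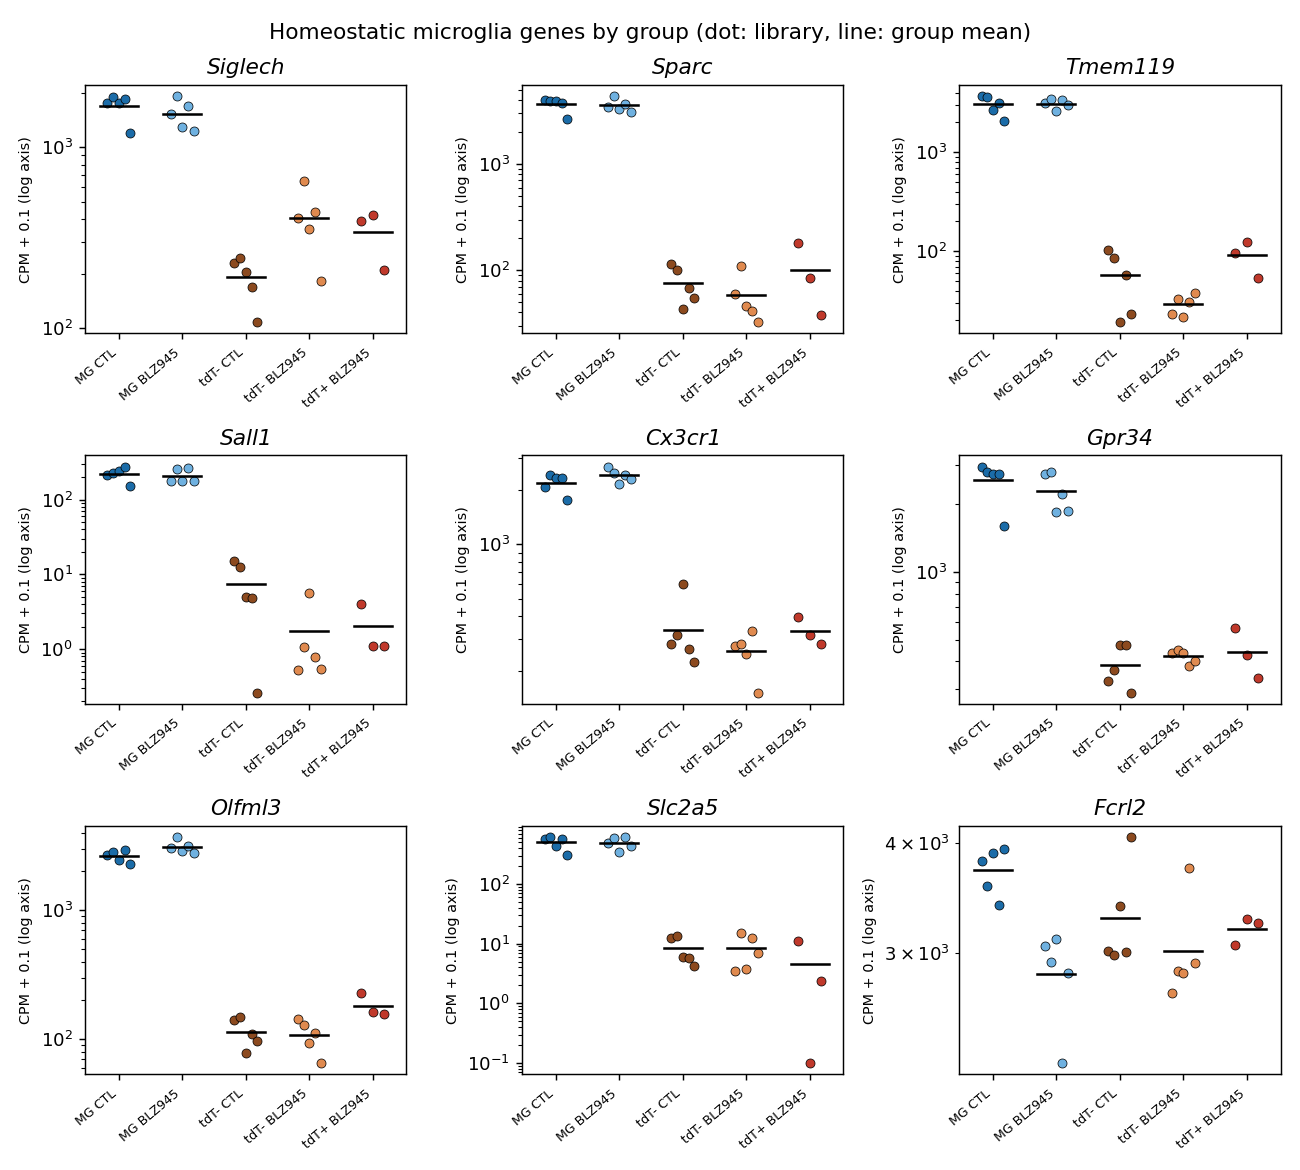
Level of each gene in the 5 groups (x axis) as CPM + 0.1 on a log axis, with a dot per library and a line at the group mean. In all 8 members the MG libraries of both treatments lie above all sdCAM libraries, while the 5 groups of the Fcrl2 row overlap in part.

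The order of the groups followed the cell type. Both MG groups ranked first for each of the 8 members, overlapped with each other, and were separate from the next sdCAM group. Among the 3 sdCAM groups, neighbours in the order overlapped for every member, except tdT+ BLZ945 and tdT- CTL in Olfml3.

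The Fcrl2 row behaved differently. It was at 3819.8, 3577, 3898, 3399 and 3939.9 CPM in MG CTL and at 3058, 2929.7, 3116, 2252 and 2849.6 CPM in MG BLZ945. All 5 BLZ945 libraries were below all 5 CTL libraries, as 1.31% of all genes were. Fcrl2 was at 75.3% of the CTL level (95% interval 64.9% to 87.5%; log2 fold change -0.41, SE 0.10; unadjusted p = 0.000993), which missed the threshold by edgeR (adjusted p = 0.0863) and passed it by DESeq2 (adjusted p = 0.00603). The MG CTL library M2, low in the members, was the highest in Fcrl2. In tdT- sdCAMs the row stood at 88.1% of the MG level in CTL (adjusted p = 0.299, but called lower with library totals only, at -0.31 on the log2 scale with an adjusted p of 0.0484) and at 107% in BLZ945 mice (adjusted p = 0.568), whereas all 8 members were called lower in both.

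The genes whose pattern was most like the mean of the members over the 23 libraries included, among 5165 genes of sufficient level, Selplg (Pearson's r = 0.998), P2ry12 (0.989), Golm1 (0.987), Klk8 (0.987), Lpcat2 (0.986), Gtf2h2 (0.983), Ecscr (0.983), Adgrg1 (0.981) and Ckb (0.976). All libraries of a population share the step between MG and sdCAMs, and libraries of an animal share its cells, so these values are a description only. Selplg, the P-selectin ligand gene, was at 2024 ± 416 CPM in MG CTL, 2088 ± 468 CPM in MG BLZ945 and 106 ± 34.8 CPM in tdT- CTL (SD, n = 5 each). The Fcrl2 row had a Pearson's r of 0.0657.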

How the data were processed

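Libraries were prepared by the authors from sorted cells. The deposited values are raw read counts per gene symbol, which the authors made with STAR 2.7.11a and featureCounts (2.0.6 in the submitters' processing notes, another version in the methods) on a Gencode annotation. The sources leave the mouse build open, so start regions are those of RefSeq. The library kit is not marked as stranded; in Gencode M21, only Cx3cr1 has exons that overlap those of another gene, an antisense one, by 78 bases.

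The tests on these counts used edgeR 4.0.16 under R 4.3.3 (TMM, filterByExpr, glmQLFit, glmQLFTest), fitted across all genes, with Benjamini-Hochberg adjustment and a threshold of 0.05. DESeq2 1.42.0, the tool of the study, was an alternative, as were other scalings, filters, a sex term, a replicate block and leaving out libraries. Between treatments, equal replicate labels are not shared animals. Intervals (95%) come from the standard error and the total degrees of freedom. BLZ945 and CTL were compared in the 10 MG or the 13 sdCAM libraries, tdT- sdCAMs with MG in 20 libraries, and tdT+ sdCAMs with MG in 23. Within a treatment the same replicate label means the same animal or pool (mean correlation of deviations 0.110 in CTL and 0.0817 in BLZ945 mice between MG and tdT-); between treatments only the label is shared. Libraries within a group came from separate animals or pools by the labels, except that the names of BLZ945 F2 and M1 share an animal number. The scripts were tested on simulated data.

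Members and gene lists were chosen with earlier results of these data known. Named besides the members are list genes that were called, had the largest change, or touched a result of a member, and the 10 genes with the highest correlation with the mean z-scored log2(CPM + 1) of the members (average log2 CPM of at least 5, no predicted genes). Of these 10, 1 is not reported here. No per-sample column was left out.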

Additional observations from a re-analysis of the deposited data

Results flagged for a closer look

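In groups of 5 libraries, a library was looked at again where its gap to the nearest other library exceeded 0.71 of the group's range. This held in 6 of 36 pairs of gene and group; chance alone gives about 1 in 20. In MG CTL, library M2 was the lowest for Siglech (gap ratio 0.796), Sparc (0.794) and Gpr34 (0.840). In tdT- BLZ945, Sall1 was highest in library F3 (ratio 0.895), at 5.60 CPM against 0.429 to 0.973 CPM in the others. In tdT- CTL, Cx3cr1 was highest in library F3 (ratio 0.754), at 602 CPM against 223 to 316 CPM. In tdT- BLZ945, the Fcrl2 row was highest in library M1 (ratio 0.79), at 3743 CPM against 2704 to 2922 CPM.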

How the results depend on the processing

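The calls of all 8 members lower in sdCAMs than in MG held under every alternative run, the replicate block included (8 of 8 called lower with the block in each of the 3 comparisons, 0 called in the 4 others). No alternative called a member between MG BLZ945 and MG CTL. DESeq2 called 1 member (Siglech) higher in tdT- BLZ945 than tdT- CTL and 1 in the difference of the BLZ945 effects, and the model of all 23 libraries called 1 (Tmem119) higher in tdT+ than tdT- sdCAMs; the cause was not tested. The Fcrl2 row passed in MG by DESeq2 and, at -0.42 (adjusted p = 0.039), with the replicate block, and in tdT- sdCAMs against MG in CTL with library totals (-0.31, adjusted p = 0.0484). Between treatments this block joins libraries by label only, not by animal. Over all genes, the MG comparison gave 238 calls by DESeq2, 193 without a filter, 12 in the model of all 23 libraries and 89 with the replicate block, against 46. The difference of effects gave 94 by DESeq2, 9 without a filter, 2 with the filter of the study, 1 each with all 23 libraries, the block or a sex term, and 0 without BLZ945 F2 and M1, against 5. BLZ945 against CTL in tdT- gave 56 by DESeq2 and 29 with all 23 libraries, and tdT+ against tdT- gave 133, 82 and, with the block, 6, against 27. Leaving out 1 library moved the other totals but not that of BLZ945 against CTL in tdT- sdCAMs, which was 0 in all 10 such fits by edgeR, and no member was called in any of these fits. The MG total was 22 without MG CTL F2 or M1, 29 without MG CTL F1 or MG BLZ945 M1, 23 and 24 without MG BLZ945 F3 and M2, 94 without MG BLZ945 F2 and 102 without MG CTL M2. The difference of effects was 0 without MG CTL F2 or M1, 1 without tdT- BLZ945 F2 or tdT- CTL M1, 2 without MG BLZ945 F1 or M1, MG CTL F1 or tdT- CTL F1, 3 without MG BLZ945 F2 or M2, 9 without tdT- BLZ945 M2, 12 without tdT- BLZ945 F3 or M1 and 36 without tdT- BLZ945 F1. The total of tdT+ against tdT- was 16 without tdT+ F2 and 17 without tdT+ F3 or tdT- BLZ945 M1.

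Log2 fold changes near 0 changed sign. In MG, Tmem119 was at -0.00826 with library totals, -0.0855 without BLZ945 F2 and M1, and -0.0894 without both M2 libraries. Fcrl2 in tdT- against MG after BLZ945 was at -0.0577 with library totals and -0.0827 without F2 and M1. Slc2a5 in the difference of effects was at -0.0329 with library totals, -0.0477 with the block and -0.59 without F2 and M1. Slc2a5 in tdT- BLZ945 against CTL was at -0.0850 with library totals, -0.0114 without a filter, -0.0264 with the filter of the study, -0.00657 with all 23 libraries, -0.17 with the block and -0.83 without F2 and M1. In tdT+ against tdT-, Gpr34 was at -0.00668 with the block and -0.16 without F2 and M1, Siglech at 0.0122 and Sall1 at -1.12 without them. Leaving out each library in turn gave ranges that crossed 0 in MG for Sall1 (-0.19 to 0.00163), Slc2a5 (-0.16 to 0.0643), Sparc (-0.14 to 0.000597) and Tmem119 (-0.0984 to 0.0888), in the difference of effects for Slc2a5 (-0.28 to 0.25), in tdT- BLZ945 against CTL for Olfml3 (-0.19 to 0.0656) and Slc2a5 (-0.32 to 0.23), and in tdT+ against tdT- for Gpr34 (-0.14 to 0.21) and Sall1 (-0.70 to 1.58). Of the 10 genes most like the members, 9 were shared with library totals and 8 in the 20 MG and tdT- libraries. Depth limits Sall1 and Slc2a5 in sdCAMs, where counts fell to 2 and 0.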
